A study of Parascaris univalens with 7 samples.

Results

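The PgE scaffolds are the scaffolds of the Parascaris univalens gene table whose names start with PgE. All 883 genes on these 466 scaffolds were marked as lying in DNA that somatic cells discard, and they were chosen by scaffold name alone, out of 15027 genes on 884 scaffolds. The table held 2710 transcripts of these genes. For each gene, the values used are those of its transcript with the largest mean RPKM (reads per kilobase of transcript, relative to the size of the library). RNA came from a North American wildtype strain, from dissected adults found in horse intestine and from embryos. Testis was labelled male germline and ovary female germline, while embryo, intestine and carcass, the body left after dissection, were all labelled male somatic. Each of these 5 tissues had 1 library, with no treatment, so that differences have no replicate error and no p-value. Another 2 libraries, from mixed samples, gave 5′ ends made by spliced leader PCR and by TeloPrime PCR and appear as marks on transcripts. For comparison the table held 102 genes marked as eliminated on 41 PgB scaffolds and 14042 genes marked as retained on 417 scaffolds.

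In Parascaris and its relative Ascaris, the cells that become somatic break their chromosomes during the early embryonic divisions and lose part of the DNA, while the germline keeps all of it. The lost DNA holds repeats and also genes, and genes known from such DNA in Ascaris are expressed mainly in the germline. A gene that lies wholly in eliminated DNA can be transcribed only in cells that still carry that DNA. Nematode sperm crawl with filaments of major sperm protein, and the nematode eggshell holds chitin and chondroitin proteoglycans. Many nematode messages receive a short spliced leader at their 5′ end.

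The recovered depth was between 11900000 reads in embryo and 31800000 in ovary, and at the median transcript length of 1325 nt a count of 3 reads was worth between 0.0712 RPKM in ovary and 0.190 in embryo. The summed RPKM of each marker list was highest in the adult tissue it was listed for, although single genes of some lists were not. The 11 major sperm protein genes of the whole table summed to 11989 RPKM in testis and to at most 324 elsewhere, the 8 ovarian message protein genes to 5885 in ovary, the 14 troponin genes to 4508 in carcass and the 4 vitellogenin genes to 2091 in intestine. Of the troponin genes 7 were highest in carcass, of 142 cuticle collagen genes 40, and of 22 aminopeptidase genes, listed for intestine, 4 in intestine and 8 in ovary. No marker of the embryo was in the lists. Of these markers, 4 sperm protein genes, 2 ovarian message protein genes, 5 cuticle collagen genes and 1 aminopeptidase gene lie on PgE scaffolds. The ovary list also held 15 chondroitin proteoglycan genes, of which 1 lies there. Of the troponin and vitellogenin genes 0 do. Whole tissues were sequenced, so that fewer cells of a type and less RNA per cell cannot be told apart.

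Most PgE scaffolds carried a single gene. There were 269 scaffolds with 1 gene, 94 with 2, 51 with 3 and 52 with 4 to 10, and the 197 scaffolds of at least 2 genes held 614 of the 883 genes. Scaffold lengths are not in the table, so span is given from the start of the first gene to the end of the last. It ran from 55 to 127727 nt, with a median of 7604 nt and quartiles of 2744 and 20044 nt. The widest span was that of PgE001, which held 7 genes, and the most genes, 10, lay on PgE011. At least 1 gene started within the first 50 nt of 139 scaffolds. Among PgE genes 151 started there, against 15 of the 14042 retained genes, so that some gene models begin at a scaffold end.

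PgE genes were shorter and had fewer exons than retained genes. Their representing transcripts had a median length of 1054 nt and 3 exons, against 1338 nt and 6 exons for retained genes. A single exon was listed for 14.8% of PgE genes and 9.15% of retained genes. No informative annotation, only a word such as hypothetical, was given for 353 PgE genes (40.0%), against 28.6% of retained genes. Adjacent PgE genes that did not overlap lay a median of 2558 nt apart, against 3845 nt for retained genes. Neighbours overlapped in 20.9% of adjacent PgE pairs and in 11.0% of retained pairs. Eliminated PgB genes were near PgE genes in overlap (21.3%) and in the share without informative annotation (38.2%). Their median gap was 1947 nt. Their transcripts were longer, with a median of 1548 nt and 5 exons.

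Spliced leader marks were less frequent on PgE genes. At least 1 transcript carried the mark in 118 PgE genes (13.4%), against 37.6% of retained genes, while a TeloPrime mark was carried by 17.6% and 15.7%. Among eliminated PgB genes these shares were 22.5% and 30.4%. The level of a gene bears on whether its 5′ end is found, so genes of at least 20 RPKM with the same highest tissue were set side by side. Of such genes highest in testis, 49 of 353 PgE genes (13.9%) and 328 of 1183 retained genes (27.7%) had the spliced leader mark. Of those highest in ovary, 25 of 85 PgE genes (29.4%) and 56.5% of retained genes had it. Among these testis genes the TeloPrime mark was also less frequent on PgE scaffolds, at 32.9% against 47.0%. The tissues in the mixed samples are not named in the labels, and these shares have no test. A gene model that begins or ends at a scaffold end, as some PgE models do, may lack its 5′ end, and how far this lowers the shares was not tested.

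The testis was the tissue of highest RPKM for most PgE genes. Of the 831 PgE genes with at least 1 RPKM somewhere, 542 (65.2%) were highest in testis, 174 (20.9%) in ovary and 102 (12.3%) in embryo. Intestine was highest for 6 (0.722%) and carcass for 7 (0.842%). Among retained genes the testis share was 16.6%, the ovary share 38.6% and the embryo share 21.0%, and intestine and carcass led 13.0% and 10.7%. The eliminated genes of PgB scaffolds, with 69 of 94 genes highest in testis, 15 in ovary and 10 in embryo, had the same order of tissues as the PgE genes. The other 52 PgE genes stayed under 1 RPKM, and 29 of them were listed at 0 in every tissue.

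**Figure D1:**
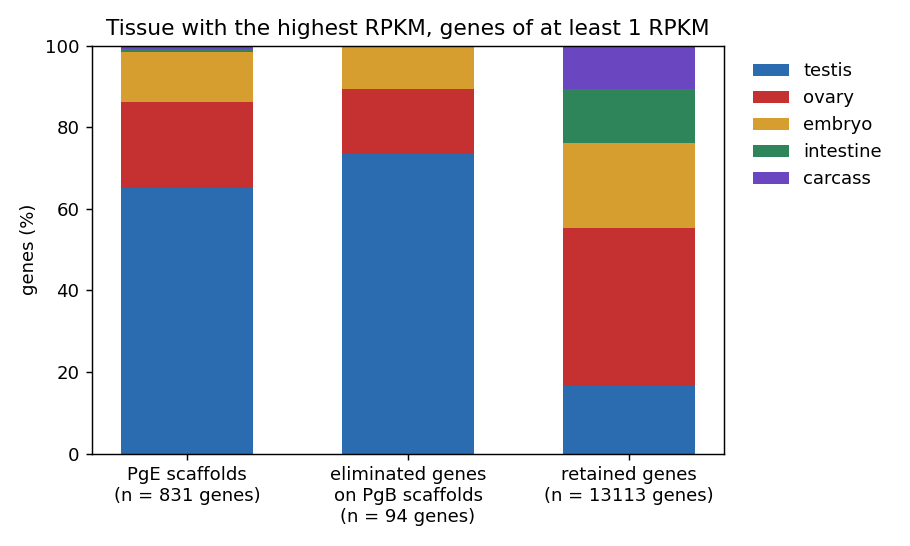
Share of genes (%, vertical axis) by the tissue of highest RPKM, for PgE genes, eliminated genes of PgB scaffolds and retained genes of at least 1 RPKM. Testis takes 65.2% of PgE genes and 16.6% of retained genes, and intestine and carcass together are barely visible among PgE genes.

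By level, too, the testis came first and the adult somatic tissues last, while embryo lay above ovary in the median and in the number of genes at 1 RPKM or more. The median PgE gene had 13.4 RPKM in testis, 1 in ovary and 2 in embryo, but 0.4 in intestine and 0.2 in carcass, whereas the median retained gene stood at 4.1, 7.7, 7, 3 and 2.5 RPKM. A level of 100 RPKM was reached by 120 PgE genes in testis, by 29 in ovary and 27 in embryo, and by 14 in intestine and 12 in carcass. Of the summed RPKM of all genes they held 13.9% in testis and 3.65% in ovary, 2.89% in the embryo library, and 1.50% in intestine against 1.47% in carcass. A value of 1 RPKM or more was found for 773 PgE genes in testis, 525 in embryo and 447 in ovary, while 309 reached it in intestine and 202 in carcass.

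Differences between tissues were taken on log2(RPKM + 1), which understates the fold of low genes, and a gene was called higher where the difference reached 2 (4-fold) and the larger value 5 RPKM. By this rule 393 PgE genes (44.5%) were higher in testis than ovary, where 11.6% of all 15027 genes were called, and 66 (7.47%) were higher in ovary, where 15.9% of all were. The second count became 29 under median-of-ratios scaling and 35 under upper-quartile scaling. Of eliminated PgB genes, 47.1% were called higher in testis and 4.90% higher in ovary. The median testis minus ovary difference on this scale was 2.09 over 806 PgE genes and −0.89 over all genes. The median of all genes moved by 0.98 under median-of-ratios scaling, 0.63 under upper-quartile scaling and 0.08 under TPM. Relative to that median, PgE genes lay 2.98 higher as deposited, 2.45 and 2.54 higher under the first and the second of these scalings, and 3.50 higher under TPM.

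Both gonads exceeded both adult somatic tissues by the same rule, taking the lower gonad and the higher somatic tissue, for 157 PgE genes (17.8%), where 3.36% of all genes were called. The reverse was called for 0 PgE genes, where 1.7% of all genes were called, and for 2 under median-of-ratios or upper-quartile scaling. Both gonads were called higher for 15.7% of eliminated PgB genes. Embryo was higher than ovary for 33 PgE genes (3.74%), where 5.33% of all were called, and ovary higher than embryo for 42 (4.76%), where 4.45% were, both close to the background. That split, 44% of calls in favour of embryo, turned to 58.5% under median-of-ratios scaling (31 against 22 genes) and 60.7% under upper-quartile scaling (34 against 22). The median embryo minus ovary difference, −0.08 as deposited, was 0.21 under median-of-ratios scaling.

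Genes called higher in 1 tissue than in each of the other 4 were mostly testis genes. This rule was met in testis by 369 PgE genes (41.8%), where 9.48% of all genes met it. It was met in ovary by 17 genes against a background of 1.8%, in embryo by 11 against 1.9%, in intestine by 1 against 1.95% and in carcass by 3 against 3.67%. Against these backgrounds, the 17 ovary genes (1.93% of PgE genes) and the 11 embryo genes (1.25%) are not numerous. Of eliminated PgB genes, 41.2% met the rule in testis.

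Genes of the same scaffold shared their highest tissue in about as many scaffolds as they did not. Of 185 scaffolds with at least 2 genes of 1 RPKM or more, 98 (53.0%) had a single highest tissue, which was testis for 84, ovary for 12 and embryo for 2. The share fell with the number of such genes, from 66 of 88 scaffolds with 2 genes and 19 of 46 with 3, to 7 of 21 with 4, 3 of 13 with 5, 3 of 11 with 6 and 0 of the 6 scaffolds with 7 to 9. A scaffold with more genes has more chances to differ, so these shares are not comparable between sizes. Both a testis gene and an ovary gene lay on 45 scaffolds, and 15 scaffolds held genes of 3 different highest tissues. Testis genes were less frequent on single-gene scaffolds, at 53.8% of 247 genes, than on scaffolds of at least 2 genes, at 70.0% of 584. Ovary genes made up 29.1% and 17.5% there.

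Neighbouring PgE genes had the same highest tissue in 250 of 383 adjacent pairs (65.3%). Pairs of PgE genes on different scaffolds, counted over every pair of the 574 genes on the same 185 scaffolds, agreed in 53.7% of cases, since testis genes are frequent throughout. Overlapping neighbours agreed in 68 of 85 pairs (80%), and reads of overlapping genes may not be separate. Neighbours that did not overlap agreed in 182 of 298 pairs (61.1%). Of pairs that neither overlapped nor carried the same annotation text, with pairs of hypothetical genes also left out, 129 of 223 (57.8%) agreed. That last value was 4.12 percentage points above the pairs on different scaffolds, and under median-of-ratios scaling the values were 64.0% and 62.6%, 1.40 points apart. Among retained genes the same comparison gave 31.7% against 24.9%, 6.72 points apart, and among eliminated PgB genes 50% of 32 pairs against 57.5%. No test of these differences was made.

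**Figure D2:**
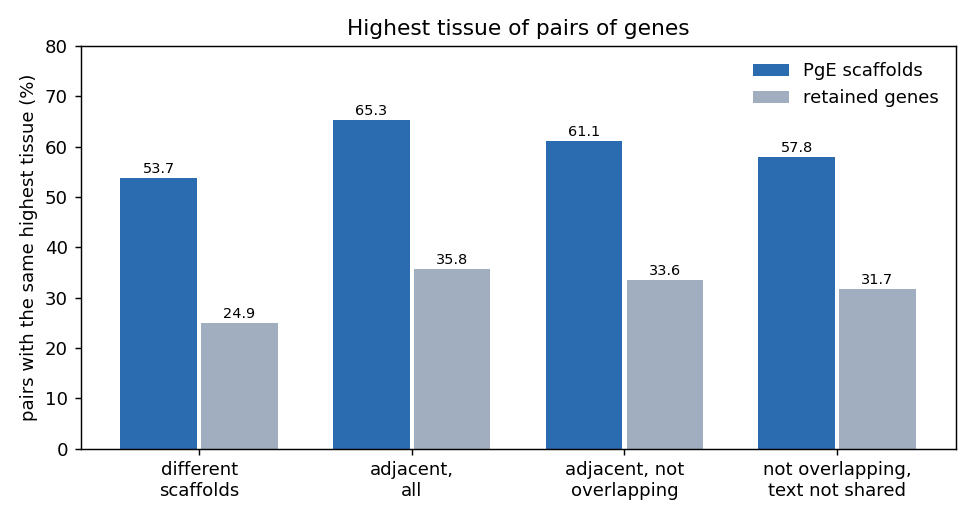
Pairs of genes with the same highest tissue (%, vertical axis) on different scaffolds with at least 2 genes of 1 RPKM, among all adjacent pairs, among adjacent pairs that do not overlap, and among those that also share no annotation text, for PgE and retained genes. PgE pairs fall from 65.3% to 57.8% as overlapping and related pairs are left out, against 53.7% for different scaffolds.

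Agreement was lowest at the widest gaps. Pairs that did not overlap agreed in 65.5% of 84 cases with a gap under 1000 nt. They agreed in 62.9% of 132 with a gap from 1000 to under 5000 nt. With a wider gap 53.7% of 82 agreed, close to the share of pairs on different scaffolds. Pairs that share annotation text are included here, and agreement by gap was not counted without them. Among retained genes the shares at these gaps were 43.7%, 35.7% and 27.2%. Same-strand pairs agreed in 63.0% of 119 cases, pairs whose starts face away from each other in 63.6% of 55, and convergent pairs in 56.7% of 67. Neighbours that shared an informative annotation agreed in 43 of 52 cases (82.7%). The agreement was mainly between testis genes. Of the 383 pairs, 214 were testis with testis, 28 ovary with ovary and 8 embryo with embryo, while 58 paired testis with ovary, 47 testis with embryo and 20 ovary with embryo. Of 106 pairs with at least 1 ovary gene, both genes were ovary genes in 28. Of 78 pairs with at least 1 embryo gene, both were embryo genes in 8. These are shares of pairs and not of the neighbours of a gene, and no expected share was set beside them.

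Where both neighbours were called between the gonads, the direction was mostly the same. Of 100 such pairs that did not overlap, 84 had the same direction, 81 of them testis and 3 ovary, and 16 had opposite directions. Called genes of different scaffolds, over scaffolds with at least 2 called genes, had the same direction in 83.0% of pairs, so the neighbours' 84% is at that level.

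Several large scaffolds were led by testis from end to end. PgE004 spans 88613 nt and held 6 genes, all highest in testis; it was chosen after its values were seen, as were PgE021 and PgE081. Its glucose transporter (PgE004_g001, solute carrier family 2) stood at 35.9 RPKM in testis, 0.6 in ovary and 0.4 in embryo, and at 0.9 and 0.1 in intestine and carcass. Its translation initiation factor 3 subunit D (PgE004_g004) stood at 68.3, 0.1, 0.5, 0.9 and 0.6 RPKM in the same order of tissues, which is used from here on. At the far end of the same scaffold, cyclin-B3 (PgE004_g006), a regulator of cell division, was shared with the female germline and the embryo, at 22.8, 19.3, 12.9, 0.8 and 0 RPKM. A single highest tissue therefore covered genes that were nearly silent in ovary and genes that were not.

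On PgE021, which spans 54007 nt, the 6 genes were again all highest in testis. They included a tau-tubulin kinase (PgE021_g001) at 72.9, 0.9, 8, 5.3 and 0.8 RPKM, another serine/threonine kinase (PgE021_g005) at 52.1, 2.6, 6.2, 0.2 and 0.7, and a splicing factor (PgE021_g006) at 24.9, 1.8, 3.5, 0.4 and 0.5. PgE081 held the ADP,ATP carrier protein 1 (PgE081_g004), which exchanges ADP and ATP across the mitochondrial membrane, at 397.8, 10.5, 33, 7.8 and 2.9 RPKM. Another pair of carrier protein models overlaps it on the opposite strand, so the 6 genes of PgE081 stand for fewer separate loci.

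PgE005 was divided near its end. Its genes for an Ancylostoma secreted protein (PgE005_g001) and an RNase H family protein (PgE005_g004) stood at 120.5 and 127.9 RPKM in testis, at 0 in ovary and at no more than 5.2 in the other tissues. Between them, a pepsin inhibitor (PgE005_g002) and the telomerase-binding protein EST1A (PgE005_g003) had 59.9 and 31.9 RPKM in testis and at most 0.8 elsewhere. The last gene, HORMA domain-containing protein 1 (PgE005_g007), a name given to proteins of the meiotic chromosome axis, stood at 4.6, 9.7, 10, 2.4 and 0 RPKM. Testis led 5 of the 6 genes that reached 1 RPKM, and the HORMA gene was the exception, with near-equal values in ovary and embryo.

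PgE022 alternated. Its first gene, annotated as a transient-receptor-potential-like protein (PgE022_g001), an ion channel, stood at 140.9, 0.2, 2, 2.4 and 1.7 RPKM. The next gene on the same strand, 1696 nt away, was nose resistant to fluoxetine protein 6 (PgE022_g002), at 3.8, 75.1, 50.4, 0.7 and 0.3 RPKM. At the other end, glycogen synthase kinase-3 beta (PgE022_g006) stood at 20, 26.9, 8, 0 and 0 RPKM and the sperm vesicle fusion protein fer-1 (PgE022_g007), required in C. elegans for the fusion of membranous organelles in sperm, at 48.7, 0, 0, 1.1 and 0.8. The first pair of genes was called in opposite directions, whereas the ovary value of the kinase was only 1.35-fold its testis value. Its testis minus ovary difference on log2(RPKM + 1), −0.41 as deposited, was 0.69 under median-of-ratios and 0.29 under upper-quartile scaling, where testis is the higher gonad. Also uncalled were PgE022_g005, with 26.4 RPKM for testis against 17.2 for ovary, and PgE022_g003, which peaked at 2.5 and overlaps PgE022_g002. Ovary was called for PgE022_g004 (27.3 RPKM, against 1.5 for testis), as for PgE022_g002. The called genes alone therefore did not alternate.

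PgE006 and PgE042 each held an embryo gene among testis genes. On PgE006 the initiation factor 2 subunit 2 (PgE006_g001) stood at 38.8, 0, 2.4, 0.8 and 0.4 RPKM, and a hypothetical gene of 1 exon (PgE006_g003) at 0, 0, 9, 0 and 0. On PgE042 a hypothetical gene (PgE042_g003) stood at 176.7, 0, 0.7, 0.1 and 1.7 RPKM, and the last gene, a ubiquitin ligase subunit sconC (PgE042_g007), at 5, 1.2, 33.8, 0.3 and 0. The embryo library was the shallowest, and the 9 RPKM of PgE006_g003 stood for 34 reads, with a counting interval (95%, exact Poisson) of 6.22 to 12.6 RPKM.

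**Figure D3:**
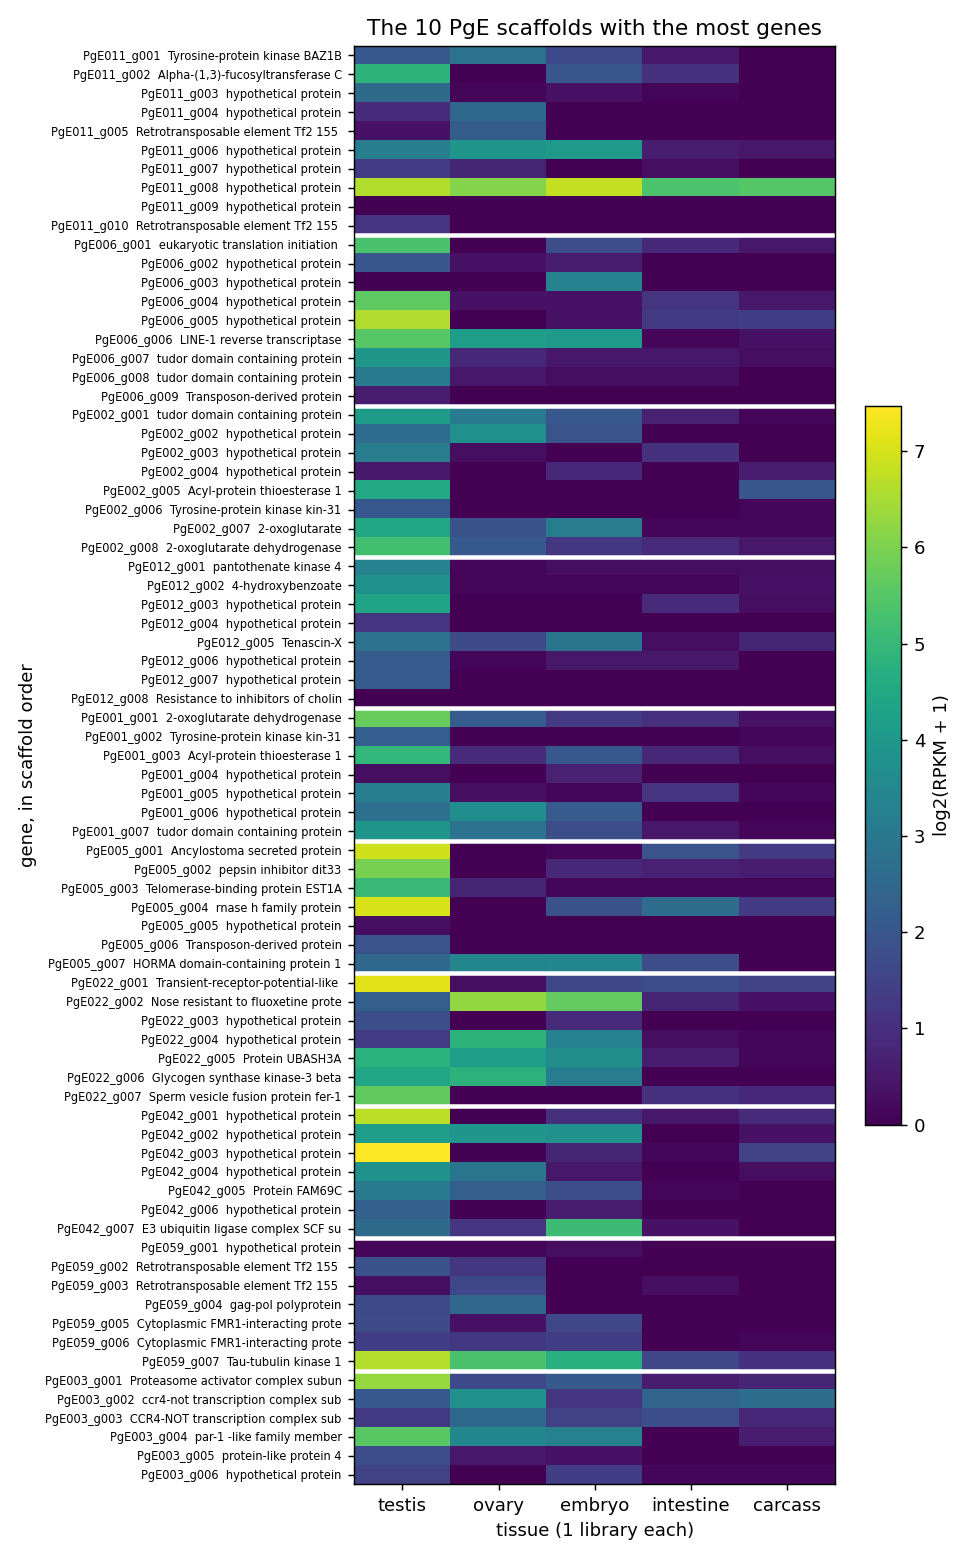
RPKM of the genes of the 10 PgE scaffolds with the most genes, in scaffold order from top to bottom, by tissue, with colour giving log2(RPKM + 1) and white lines between scaffolds. The testis column is brightest on most rows, single rows of ovary or embryo genes lie among them, and the intestine and carcass columns are dark apart from a hypothetical gene of PgE011 (PgE011_g008).

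Pairs of strong neighbours showed both patterns. The pair on PgE404 was made of 2 gene models of major sperm protein isoform beta, PgE404_g001 at 6856, 1.2, 24.4, 180.2 and 74 RPKM and PgE404_g002, inside it on the opposite strand, at 4424, 0.7, 17.4, 128.6 and 47.1. Their reads may be those of 1 locus. PgE067 held a pair 377 nt apart on opposite strands, methylmalonyl-CoA epimerase (PgE067_g001), an enzyme of propionate breakdown, at 333.1, 0.1, 0.6, 8.4 and 2.9 RPKM and a hypothetical gene (PgE067_g002) at 205.3, 0.3, 2.7, 3.4 and 3. These are separate loci with the same pattern.

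Opposite patterns also stood side by side, at wider gaps in these examples. On PgE029 the tyrosine phosphatase non-receptor type 9 (PgE029_g001) stood at 17.3, 369.4, 41.9, 1.8 and 0.8 RPKM, and 971 nt further, on the other strand, an MSP domain protein (PgE029_g002) at 104.8, 0.1, 0.3, 1.3 and 1.4. On PgE040 tubulin alpha-2 (PgE040_g001), a subunit of microtubules, stood at 19.8, 860.3, 153.2, 1 and 2.5 RPKM, and its neighbour 3088 nt away (PgE040_g002), a hypothetical gene, at 142.8, 0.2, 2.9, 2 and 1.1. On PgE068 the ovarian abundant message protein genes PgE068_g001 and PgE068_g002, which overlap on the scaffold, had 294.7 and 66.4 RPKM in ovary and at most 0.2 in testis. The next gene, a hypothetical one 4410 nt away (PgE068_g003), stood at 232, 0, 0, 2.6 and 2.8. On each of these 3 scaffolds the first genes were called higher in ovary than testis and the neighbour higher in testis than ovary.

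A pair of embryo genes lay on PgE141. The overlapping hypothetical genes PgE141_g003 and PgE141_g004 had 170 and 187.6 RPKM in embryo and at most 3.9 elsewhere, and a mannosidase (PgE141_g002), an enzyme that trims sugar chains of proteins, stood at 2.7, 0, 14.9, 0 and 0 beside them. The other genes of PgE141 and PgE087, given with these pairs, were chosen after their values were seen. The first gene of the scaffold (PgE141_g001) was a testis gene, at 41.7, 0, 3.5, 0.4 and 0.4 RPKM. The zinc finger scaffold PgE087 ended in the same way, with 3 testis genes annotated as KRAB and SCAN domain proteins (410.1, 185.2 and 321.5 RPKM in testis, at most 0.4 in ovary), of which PgE087_g002 and PgE087_g003 overlap, followed by the zinc metalloproteinase nas-34 (PgE087_g004) at 0.3, 0, 16, 0 and 0.

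The PgE genes with the largest testis values were of mixed annotation. Of the 10 with the highest testis value, 2 are the sperm protein models of PgE404 and 5 belong to the genes with 1 common ratio between tissues, described below. Among the others, condensin-2 complex subunit g2 (PgE075_g001), a protein of chromosome condensation, stood at 969.3, 535.9, 786.4, 325.2 and 421.4 RPKM. Tyrosine-protein kinase Fer (PgE050_g003), which adds phosphate to tyrosines, stood at 6163, 1.4, 12.6, 141.6 and 70.3 RPKM, with counting intervals of 6135 to 6192 RPKM in testis and 1.01 to 1.91 in ovary. The splicing arginine serine-rich gene PgE082_g001, alone on its scaffold, stood at 1322, 8.1, 8.7, 35.6 and 13.3. These intervals cover counting error only. The gene with the highest testis value of all, annotated as the RNA helicase dhx8 (PgE060_g001), had a different profile, described below with the genes that share it.

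Ovary genes on PgE scaffolds included eggshell and cytoskeleton genes. Chitin synthase 8 (PgE051_g001), an enzyme that makes chitin, stood at 13.7, 418.9, 205.5, 4.7 and 1.3 RPKM. Chondroitin proteoglycan 2 (PgE101_g002), named after a C. elegans eggshell component, stood at 5.1, 311.5, 27.4, 6.3 and 3. The metabolic enzyme succinyl-CoA:3-ketoacid transferase (PgE133_g001), which uses ketone bodies, stood at 50.9, 324.8, 28.4, 1.8 and 1.5. The chitin synthase value was 2.04-fold lower in embryo than in ovary, while the values of the proteoglycan and the transferase were both 11.4-fold lower.

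Regulators of messages were among the ovary genes too. The first, chosen after its values were seen, was the cytoplasmic polyadenylation element-binding protein 3 (PgE144_g001), of a family that controls translation of stored messages, at 4, 77.6, 16.3, 0 and 0.1 RPKM. The Fem-3 mRNA-binding factor 2 (PgE079_g002), a regulator of the germline in C. elegans, stood at 7.4, 45.3, 23.2, 0.5 and 0.4. Tristetraprolin (PgE019_g004), of a family that binds messages and shortens their life, stood at 21.3, 162.6, 140.3, 2 and 0.3. Its neighbour PgE019_g003, proteasome subunit alpha type-7, was a testis gene, at 132.5, 31.4, 17.7, 6 and 1.3 RPKM.

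The strongest embryo gene was a hypothetical one (PgE192_g001), at 25.5, 34.6, 2170, 108.4 and 78.2 RPKM. Its only neighbour, an R2 retrotransposable element gene (PgE192_g002) that the naming rule did not pick, was listed at 0 in all 5 tissues. Tubulin beta-1 (PgE153_g002) stood at 82.1, 256.1, 331.2, 8.2 and 1.7, and a Tf2 retrotransposable element gene (PgE295_g001) at 25, 225.1, 254.1, 2.4 and 1. The tubulin and Tf2 values in embryo were 1.29-fold and 1.13-fold those in ovary, whereas the hypothetical gene had 62.7 times its ovary value.

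The gene groups found by words in the annotation differed in their leading tissue. All 7 sperm genes on PgE scaffolds were highest in testis and called higher in testis than ovary, and 95.8% of retained sperm genes were highest in testis too. The median testis minus ovary difference (log2) of these was 6.59 on PgE scaffolds and 6.66 in retained DNA. Protein kinases, 48 genes, were highest in testis in 42 cases, and 28 were called higher in testis and 2 higher in ovary. Phosphatases gave 18 testis genes of 19, with 16 and 1 called, and transporters 18 of 20, with 16 and 0 called. Of all PgE genes, 44.5% were called higher in testis and 7.47% higher in ovary. Among retained genes of at least 1 RPKM, testis led 32.8% of kinases, 32.2% of phosphatases and 12.9% of transporters. The median testis minus ovary difference (log2) of the PgE members was 2.84 for kinases, 4.64 for phosphatases and 4.70 for transporters, against 2.09 for all PgE genes.

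Genes of protein turnover and zinc finger genes also lay on the testis side. The ubiquitin system had 24 of 34 genes highest in testis, with 21 called higher in testis (61.8%) and 2 in ovary, where 44.5% of all PgE genes were called higher in testis. Testis led 17.4% of retained genes of this list. Its members included an F-box gene (PgE199_g001) at 302.6, 0, 2.1, 4.6 and 3.7 RPKM and the ubiquitin-conjugating enzyme E2 L3 (PgE030_g001) at 166.7, 0, 2.5, 1.9 and 2.1. Of 15 zinc finger genes, 11 were highest in testis and 10 were called so against ovary (66.7%), 0 in the reverse, while testis led 12.2% of retained zinc finger genes. Families were chosen after their values were seen. All 6 gene models of proteasome activator complex subunit 4, on 5 scaffolds, were highest in testis, between 22.7 and 151.7 RPKM, and all 7 of tau-tubulin kinase 2 were too, between 5.9 and 160.2. The 6 fer-1 genes, on 4 scaffolds, stood between 5.3 and 48.7 RPKM in testis and at most at 2.4 elsewhere.

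RNA regulators and helicases were more often highest in ovary than in testis. Of their 32 PgE genes, 18 were highest in ovary, 11 in testis and 3 in embryo, and the median testis minus ovary difference was −0.78. Retained genes of the list had similar values, with 51.1% highest in ovary and a median of −0.67. Calls between the gonads were few in both directions, 4 higher in ovary (12.5%) and 3 higher in testis (9.4%). Of all PgE genes, 7.47% and 44.5% were so called. Higher in both gonads than in both somatic tissues were 12 of the 32, where 17.8% of all PgE genes were called. The families named here were chosen after their values were seen. The 5 genes of argonaute alg-6, a family that binds small RNAs, were all highest in ovary, between 8.9 and 39 RPKM, with 4.2 to 18.4 in testis and at most 1 in intestine and 0 in carcass. These include overlapping models on PgE425. Of 5 genes annotated as structural maintenance of chromosomes protein 1A, part of the cohesin ring, 4 were highest in ovary, between 8.4 and 14.3 RPKM, and all were listed at 0 in intestine and carcass. Of 5 DAZ protein 1 genes, named after a family of germline RNA-binding proteins, 4 were highest in embryo, between 9.9 and 46.2 RPKM, and 1 in testis (PgE226_g001), at 104.5, 0, 1.4, 1.3 and 1.1.

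Genes of general cell function had PgE members with germline values. Of 10 ribosomal protein genes, 9 reached 1 RPKM and 6 were highest in testis, while 78.5% of retained ribosomal protein genes were highest in ovary. Of the same 10, 6 were called higher in both gonads than in both somatic tissues, where 17.8% of all PgE genes were called. Ribosomal protein L17 (PgE321_g001) stood at 67.6, 28.6, 11.8, 0.1 and 0.2 RPKM, and ribosomal protein S19G (PgE026_g003) at 18.2, 56.3, 6.4, 0 and 0.3. Translation factors had 6 of 12 genes highest in testis and 5 in ovary, and 6 were called higher in testis than ovary, at 50% near the 44.5% of all PgE genes. Of retained translation factors 7.35% were highest in testis. Cytoskeleton genes, 36 in all, were highest in testis in 18 cases, ovary in 12 and embryo in 5. Of these 36, 13 were called higher in both gonads than in soma, where 17.8% of all PgE genes were. None of the ribosomal proteins or translation factors was called higher in ovary than testis (0 of each). Of all PgE genes 7.47% were, so in groups of 10 and 12 genes a count of 0 says little.

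Of 129 chromatin and histone genes, 8 (6.20%) lay on PgE scaffolds, near the 5.88% of all genes that lie there. They included 2 histone RNA hairpin-binding proteins, which bind the end of histone messages, PgE116_g001 at 228.7, 0, 2.2, 4.1 and 2.8 RPKM and PgE098_g002 at 225.2, 0, 0.1, 6 and 3. The chromatin remodeller isw-1 (PgE323_g002) was an ovary gene, at 4.2, 66.4, 20.9, 1.1 and 0.3. Of 72 genes found by words for DNA replication and repair, 0 lay on PgE scaffolds, but the words do not cover every such name. Among the names they miss, chosen after their values were seen, are the MutS protein 5 genes PgE201_g001 and PgE269_g001, of a family that acts in meiotic recombination, with 22.1 and 14.1 RPKM in testis and 8.4 and 10.9 in ovary. Transposable element genes were more frequent there, with 20 of the table's 71 on PgE scaffolds (28.2%), of which 13 reached 1 RPKM, 5 highest in testis, 5 in ovary, 2 in embryo and 1 in intestine. The search uses a few words, so these counts are of names and not of all such genes.

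In intestine and carcass most PgE genes were low. At least 1 RPKM in either was listed for 338 PgE genes (38.3%), against 75.8% of retained genes, at least 5 RPKM for 93 and at least 100 for 16. Of the 338, 211 had less than 5% of the highest value of the gene in testis, ovary or embryo, 102 had between 5% and 50%, and 25 had at least 50%. Another 212 PgE genes (24.0%) were listed at 0 in both. The mark says that these cells lack the DNA, and the data do not show where these reads came from.

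In strong testis genes the median somatic value was a similar share of the testis value in PgE and retained genes. Genes of at least 100 RPKM in testis, at most 1% of that in ovary and at most 5% in embryo were compared, a choice made after values were seen. In the 71 such PgE genes intestine stood at a median of 1.60% of the testis value (quartiles 1.13 and 2.33) and carcass at 1.11%. In the 258 such retained genes the medians were 1.70% and 1.15%, but the highest values were 20.6% in intestine and 89.8% in carcass, against 4.73% and 3.98% in PgE genes. The intestine values of PgE404_g001 and PgE050_g003, 180.2 and 141.6 RPKM, were 2.63% and 2.30% of their testis values. Transfer of RNA or reads between samples was not tested. For genes of at least 50 RPKM in ovary and at most 10% of that in testis, intestine stood at 0.843% and carcass at 0.346% in 18 PgE genes, and at 2.02% and 2.23% in 325 retained genes.

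A small group of PgE genes had values in every tissue in 1 common ratio, most of them at high levels. It was found after the values were seen, as genes of at least 10 RPKM whose 5 values all lay within 0.5 (log2) of the profile of PgE060_g001 after scaling to a common level. There were 12 among 612 PgE genes of at least 10 RPKM, on 11 scaffolds, against 6 among 9329 retained genes. PgE060_g001 stood at 7303, 3596, 3595, 2106 and 3126 RPKM. An O-acetyltransferase (PgE205_g002) stood at 1291, 654.6, 580.8, 383.8 and 591.2, and a PP1 phosphatase (PgE071_g003) at 985.9, 480.6, 537.6, 287.9 and 420. Over the 12 genes, ovary stood at a median of 50.4% of testis, embryo at 48.3%, intestine at 28.4% and carcass at 42.8%. These medians follow from the rule that picked the genes. The lowest of them, PgE276_g002, stood at 44.7, 22.4, 14, 10.1 and 12.1 RPKM.

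These 12 genes carried much of the somatic signal of the PgE scaffolds. Of the summed PgE RPKM they held 20.3% in testis, 35.6% in ovary and 38.3% in embryo, but 61.7% in intestine and 72.5% in carcass. Much of this was 1 gene, PgE060_g001, whose profile defined the group. It held 2106 of 6608 summed PgE RPKM in intestine and 3126 of 8400 in carcass. Without the 12 genes, PgE genes held 0.574% of all summed RPKM in intestine and 0.405% in carcass, down from 1.50% and 1.47%, and 11.1% in testis. With a limit of 1 in place of 0.5 (log2) for the distance from the profile, also chosen after seeing the data, 16 PgE genes met the rule, and without them the shares were 0.430% in intestine and 0.258% in carcass. The 12 genes included 11 of the 33 PgE genes with at least 20 RPKM in intestine or carcass and 9 of the 16 with at least 100. Their annotations, a helicase, an acetyltransferase, a phosphatase, a kinase, a myosin-like protein, an ezrin-associated protein and 6 hypothetical proteins, name no shared function.

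Within PgE060_g001 the ratio belonged to some transcripts and not others. The transcripts that start at position 2 and end at 13804 or 16418 had 7303 and 6621 RPKM in testis and 3126 and 2842 in carcass, and those that start at 2319 had 1834 and 1947 in testis and 773.1 and 821.5 in carcass. In the 6 transcripts that start at 8728 or 9681, testis values ran from 22.3 to 59.2 RPKM and carcass values from 0.4 to 3.2. A transcript that starts at position 2 but ends at 12426 had 69.4 RPKM in testis and 16.9 in carcass. How reads that match several places were counted is not given in the sources used here, and whether a repeated sequence is shared between these genes was not tested.

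**Figure D4:**
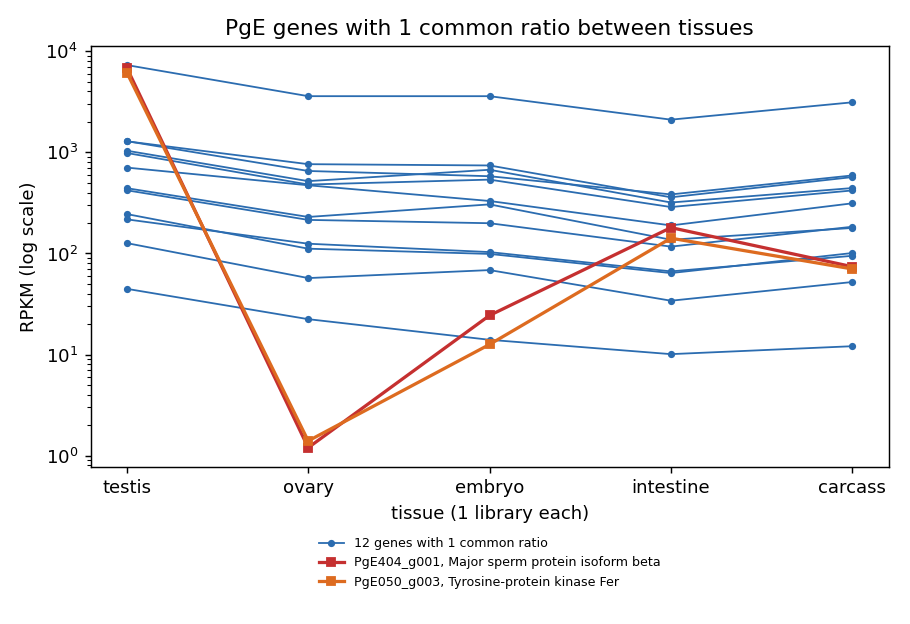
RPKM (log axis) by tissue for the 12 PgE genes with a common ratio between tissues, with major sperm protein isoform beta (PgE404_g001) and tyrosine-protein kinase Fer (PgE050_g003) for comparison, lines joining the values of 1 gene. The 12 profiles, picked for that ratio, run in parallel by the rule, from 44.7 to 7303 RPKM in testis. The other lines drop to 1.2 and 1.4 RPKM in ovary.

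Intestine or carcass was the highest tissue of 13 PgE genes. ASABF-alpha (PgE286_g001), of a family of nematode antimicrobial peptides, stood at 0, 0.5, 0.3, 1 and 234.9 RPKM, and 2081 reads lay behind the carcass value. The strongest retained ASABF-alpha gene (PgR019_g012) stood at 0.9, 1.7, 7.6, 81.7 and 940.3. The rest of these genes were chosen after their values were seen. A gene annotated as cre-grl-4 (PgE754_g001) stood at 22.7 RPKM in carcass and was listed at 0 in the other tissues, and a cuticular collagen (PgE085_g002), a structural protein of the worm's surface, at 13.6 in carcass and 0 elsewhere. A hypothetical gene (PgE495_g001) stood at 3.6, 0, 7.2, 61.9 and 13.2, and reticulon-4 (PgE388_g001) at 8.7, 28.1, 14, 25.3 and 38.6. For the cre-grl-4 and reticulon-4 annotations, retained genes with higher carcass values were listed, PgR026_g103 at 457.1 and PgB17_g004 at 149.7 RPKM. Whether reads of retained copies were counted at the PgE genes was not tested.

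Most named PgE genes had a namesake in retained DNA. Of 530 PgE genes with an informative annotation, 423 (79.8%) shared its text with at least 1 retained gene, and 107 did not. The same text does not show that genes are copies of each other. For 405 of the 423, both the PgE gene and the strongest retained gene of that text reached 1 RPKM, and they had the same highest tissue in 187 cases (46.2%). Where the text belonged to a single retained gene, so that no strongest one was chosen, the tissue was the same in 56 of 153 cases (36.6%). Over all 405 pairs, the PgE gene was a testis gene and the strongest retained gene was not in 138, and the reverse held in 23. Of these PgE genes 59.0% were highest in testis, 26.7% in ovary and 2.72% in intestine or carcass, while their strongest retained namesakes were highest in testis in 30.6%, in ovary in 38.8% and in intestine or carcass in 14.6%.

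These pairs differed in their somatic values. The strongest retained gene had at least 5 RPKM in intestine or carcass in 273 of the pairs, and in 162 of these the PgE gene stayed under 1 RPKM in both tissues. Taking the strongest retained gene favours high retained values, and these counts were not made for texts with a single retained gene. The 423 PgE genes shared 255 texts with retained genes, so some retained genes are counted more than once. Pyruvate dehydrogenase E1 alpha, which feeds pyruvate into the mitochondrial energy cycle, is an example chosen after its values were seen. The PgE gene (PgE097_g003) stood at 900.1, 3.5, 3.7, 23.4 and 6.9 RPKM and the only retained gene with exactly the same text (PgR011_g113) at 29.3, 17.6, 60.5, 434.9 and 62.1. The PgE value was 30.7 times the retained value in testis, and the retained value 18.6 times the PgE value in intestine. Another retained gene, whose text ends in type II (PgR009X_g185), stood at 73, 203.9, 106, 72.6 and 718.4. Against that gene the PgE value was 12.3 times as high in testis, and the retained value was 3.10 times as high in intestine and 104 times in carcass. The splicing gene PgE082_g001, at 1322 RPKM in testis, had a namesake (PgR115X_g012) with 4.8, 8.6, 11.4, 6.9 and 1.3.

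The ovary genes had namesakes of several kinds. Tubulin alpha (PgE014_g001) stood at 269.8, 695.2, 381.1, 31.6 and 24.3 RPKM, and the strongest retained tubulin alpha gene (PgR016_g119) at 304.7, 690, 1358, 366.7 and 429.7, near-equal in the gonads, 11.6-fold higher in intestine and 17.7-fold higher in carcass. Chitin synthase 8 (PgE051_g001), at 418.9 RPKM in ovary, had 1 retained namesake (PgR065_g014) with at most 0.9 RPKM anywhere. The transferase PgE133_g001 had 324.8 RPKM in ovary and its strongest namesake (PgB31_g013) 19.6. The tyrosine phosphatase PgE029_g001, with 369.4 RPKM in ovary, had a namesake (PgR004_g097) that was highest in testis, at 176.1, 8.9, 3.3, 4.5 and 2.3.

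**Figure D5:**
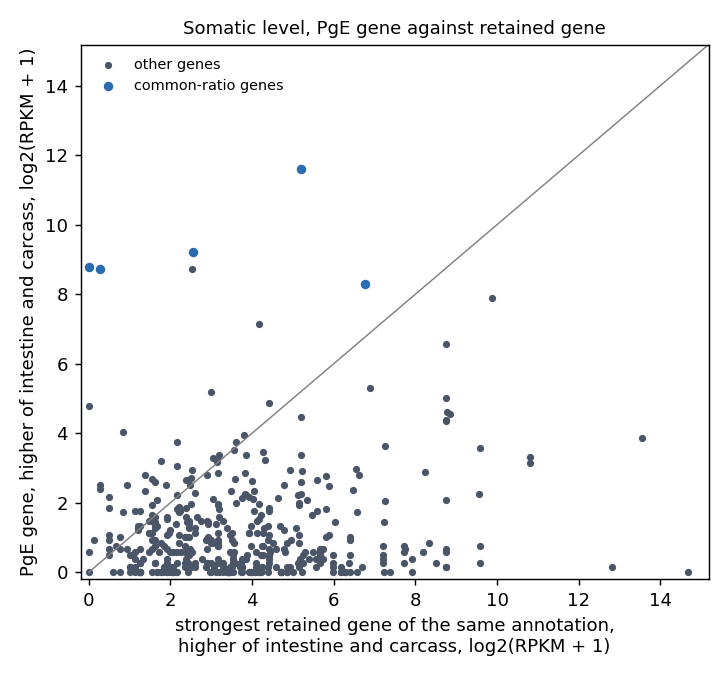
Higher of intestine and carcass, log2(RPKM + 1), for PgE genes (vertical axis) against the strongest retained gene with the same annotation text (horizontal axis), 1 point for each of 423 PgE genes, with the line of equal values; genes with the common ratio are marked. Most points lie under the line and along the lower edge, and the marked genes lie above it. Taking the strongest retained gene favours points under the line, and the same retained gene can stand behind several points.

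Some PgE scaffolds held the same genes as another. With the annotation, transcript length and exon number all equal, 4 pairs of scaffolds shared at least 2 genes. PgE015 and PgE017 shared all 3 of their genes, each displaced by 1024 nt, among them the kinase PLK1, at 2.7, 2.9, 5.3, 0 and 0 RPKM on the first and 2.7, 3, 3.9, 0 and 0 on the second. PgE008 and PgE014 shared 3 of their 6 genes, displaced by 9018 nt, while their other genes differed. PgE011 and PgE139 shared 2 genes, displaced by 51475 nt, and PgE001 and PgE002 shared 3 genes in reversed order on opposite strands. In the last pair, a hypothetical gene had 11.8 RPKM in ovary on one scaffold (PgE001_g006) and 12.6 on the other (PgE002_g002). Reads of such genes cannot be assigned to 1 of the scaffolds from these values, and without the second scaffold of each pair the neighbours' share of 65.3% became 66.0%. The rule misses genes whose models differ in length. The 2-oxoglutarate dehydrogenase, acyl-protein thioesterase and tudor domain genes of PgE001 also had namesakes on PgE002, in the same reversed order. In testis they stood at 51.8, 29.7 and 13.5 RPKM on PgE001 and at 36.3, 21.7 and 16.4 on PgE002.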

How the data were processed

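RNA-seq of 5 tissues, 1 library each, had been made from rRNA-depleted total RNA, per the labels' protocols, with 2 mixed 5′ libraries present only as marks on transcripts. The deposited table gave the authors' RPKM per transcript to 1 decimal. Per the submitters' processing notes the tools included TopHat2 and Cufflinks; neither a version nor what each one did is stated. Not given in the sources used here are the genome build, the annotation, the treatment of reads that match several places and the use of strand. Values of genes with near-identical copies and of overlapping genes (173 PgE genes) are therefore uncertain.

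A gene is a transcript name without its transcript suffix. Depth was recovered from the spacing of low RPKM values, 97.3% to 100% of which were whole reads under the recovered depth, and exact Poisson intervals used those reads. A count test was not possible with 1 library per tissue. Calls used log2(RPKM + 1), a difference of 2 and 5 RPKM. The highest tissue was taken for genes of at least 1 RPKM, and neighbours are adjacent genes by start. Pairs on different scaffolds were counted in full, with no sampling. Gene groups came from fixed words in the annotation. Genes were named by rank in testis, ovary, embryo and soma, by rank in each group, by pairs of strong neighbours, by the scaffolds with the most genes and by namesakes in retained DNA; others are said to be chosen after their values were seen. The members, lists and rules were chosen with earlier results of these data known. Alternatives were other transcripts, scalings (median-of-ratios, upper-quartile, TPM), pseudocounts, thresholds, floors and sets of genes. No column of another sample was found (0). The code for calls and pairs was run on simulated data with large set changes and counting error only, which does not test the results themselves. Computation used Python 3.11.15, numpy 2.4.6, pandas 2.3.3, scipy 1.17.1 and matplotlib 3.10.9.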

Additional observations from a re-analysis of the deposited data

How the results depend on the processing

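The 393 PgE genes higher in testis than ovary became 293 to 444 under 14 alternatives, and the 98 scaffolds with a single highest tissue became 71 to 103 under 11, both within 1.5 times. Of the smaller counts more moved. Higher in ovary than testis (66) became 29 under median-of-ratios scaling, 35 under upper-quartile scaling, 34 with a pseudocount of 5, 140 at 2-fold and 30 at 8-fold. Higher in embryo than ovary (33) became 68 with transcripts summed, 8 with a pseudocount of 5, 64 at 2-fold, 17 at 8-fold and 17 with at least 10 RPKM required. Higher in ovary than embryo (42) became 22 under median-of-ratios and 22 under upper-quartile scaling, 64 under TPM, 11 with a pseudocount of 5, 120 at 2-fold and 12 at 8-fold. Higher in both gonads than in soma (157) became 41 with a pseudocount of 5, 73 at 8-fold and 88 with at least 10 RPKM required. The reverse (0) became 1 with transcripts summed and 2 under median-of-ratios scaling, under upper-quartile scaling and at 2-fold. The share of genes highest in testis (65.2%) became 73.6% under median-of-ratios and 69.0% under upper-quartile scaling. Genes with somatic signal (338) became 93 at a floor of 5 RPKM. The share of neighbours with the same highest tissue (65.3%) became 70.7% at a floor of 5 RPKM and 57.8% without overlapping pairs and pairs that share annotation text, an alternative chosen after seeing the data. The testis minus ovary difference of named genes stayed within its counting error (95% intervals of both tissues combined) in 429 cases and moved beyond it in 663. Of these, 20 cases in 14 genes changed sign, 0 of them in a gene called between the gonads. Pseudocounts, thresholds and floors change these counts by construction; the cause of the other moves was not tested. Leaving out a replicate was not possible with 1 library per tissue. No paired analysis was possible because each tissue has 1 library. Depth limits low values most in embryo, the shallowest library.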

Other observations

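Some metabolic enzymes and transporters on PgE scaffolds had high testis values; they were picked for those values and stand for no list. The 2-amino-3-ketobutyrate coenzyme A ligase (PgE050_g001), an enzyme of threonine breakdown, stood at 191 RPKM in testis, 1.7 in ovary and 2.5 in embryo, and at 3.8 and 1.2 in intestine and carcass. The 2-oxoisovalerate dehydrogenase subunit beta (PgE136_g001), which acts in the breakdown of branched amino acids, stood at 159.1, 12.2, 9.6, 4.2 and 2.2 RPKM in the same order. All 4 genes annotated as 2-oxoglutarate dehydrogenase, on 4 scaffolds, were highest in testis, between 1.7 and 51.8 RPKM, with at most 3.5 elsewhere. They include PgE001_g001 and PgE002_g008, on scaffolds that share other genes, and whether these are separate loci was not tested. All 4 genes of solute carrier family 22 member 6 stood between 43.4 and 60.2 RPKM in testis and at most at 2 elsewhere.

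Members of RNA and motor protein families on PgE scaffolds, also chosen after their values were seen, did not all have the same highest tissue. The 5 genes of U2 small nuclear ribonucleoprotein B, a spliceosome protein, were all highest in testis, between 29.3 and 79.5 RPKM, with at most 3.2 elsewhere. Of 4 myosin-7 genes, 3 were highest in ovary and 1 (PgE392_g001) in testis, at 19.2, 12.3, 17, 1.4 and 0.3 RPKM. The 4 genes annotated as a zinc C2H2 family were all highest in embryo, between 1.4 and 11.6 RPKM, and were listed at 0 in intestine and carcass.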
